A study of Homo sapiens and Mus musculus with 25 samples.

Results

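The promoters of 10 genes that license and build the replicative DNA helicase were read in the H3K4 methylation peak lists of K562, a long-established line of human leukaemia cells (chronic myeloid leukaemia). The genes are MCM2, MCM3, MCM4, MCM5, MCM6, MCM7, CDC6, CDT1, ORC1 and GINS2, chosen by name, and all 10 were found among the 19962 protein-coding genes analysed. MCM5 was singled out in advance as the gene without an H3K4me3 list, so its H3K4me3 values are given as a description. The libraries were made by internally calibrated ChIP-seq, where nucleosomes of known modification, each carrying a DNA barcode, are added to the chromatin before immunoprecipitation. All libraries came from untreated K562 chromatin and differed in the antibody. Of the 17 antibodies against methylated H3 lysine 4, 5 were raised against H3K4me1 (Abcam ab8895 and Active Motif 39635, then Cell Signaling Technologies 5326 BF, EpiGentek A-4031-050 and Thermo Fisher 710795). Another 4 were raised against H3K4me2 (Abcam ab7766, Cell Signaling Technologies 9725, EMD Millipore 05-1338 and Thermo Fisher 710796). The remaining 8 were raised against H3K4me3 (Abcam ab12209 and ab8580, Diagenode C15410003, Abclonal A2357, EpiGentek A-4033-050, Thermo Fisher PA5-40086, and EMD Millipore 05-745R and 07-473). A further 3 corrected lists, 1 for each degree of methylation, were derived by the authors from 4 of these libraries (Abcam ab7766, ab8580, ab8895 and ab12209) and so are not independent of them. One list each for H3K9me3 (Koide Lab 309M3B) and H3K27me3 (Cell Signaling Technology 9733) completes the 22 lists.

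MCM2 to MCM7 form the ring-shaped hexamer that unwinds DNA at the replication fork. ORC1, a subunit of the origin recognition complex, together with CDC6 and CDT1 loads this hexamer onto origins, and GINS2 belongs to the GINS complex that joins the loaded ring to make it an active helicase. Transcription of these genes rises as cells enter the cell cycle, and many of them are known targets of the E2F family of transcription factors. H3K4me3 is the modification typical of active promoters, H3K4me2 lies at and around them, and H3K4me1 is typical of enhancers and of the shoulders of active promoters.

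To show the DNA that the peaks covered, the bases upstream of the transcription start site (TSS) are given for 5 members, 5′ to 3′ in the direction of the gene, from RefSeq's GRCh38.p14 promoters and cut to the stretch outside any annotated exon. Capitals mark the letters TTTCCCGC, TTTCGCGC, TTTGCCGC or TTTGGCGC on either strand, the core of E2F-type sites. MCM6 is shown because it carried 2 stretches with a word on each strand, MCM3, CDT1 and GINS2 because each carried 1 match in the stretch shown, and ORC1 because it carried none. The regions are chr2:135876444-135876693 (MCM6, minus strand), chr6:52284882-52284992 (MCM3, minus), chr16:88803539-88803788 (CDT1, plus), chr16:85688955-85689204 (GINS2, minus) and chr1:52404424-52404601 (ORC1, minus).
MCM6: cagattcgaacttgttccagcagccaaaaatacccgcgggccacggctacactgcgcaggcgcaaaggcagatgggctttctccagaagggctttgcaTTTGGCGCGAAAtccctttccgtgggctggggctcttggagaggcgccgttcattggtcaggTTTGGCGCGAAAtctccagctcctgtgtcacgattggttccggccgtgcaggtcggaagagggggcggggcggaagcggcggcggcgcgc
MCM3: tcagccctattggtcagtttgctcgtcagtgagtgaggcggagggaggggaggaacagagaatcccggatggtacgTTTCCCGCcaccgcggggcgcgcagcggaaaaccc
CDT1: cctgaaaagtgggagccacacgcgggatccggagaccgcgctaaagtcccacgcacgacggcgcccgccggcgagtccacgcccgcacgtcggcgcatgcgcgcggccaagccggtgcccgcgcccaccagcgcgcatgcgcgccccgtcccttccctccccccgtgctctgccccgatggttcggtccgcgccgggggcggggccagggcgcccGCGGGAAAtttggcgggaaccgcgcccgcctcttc
GINS2: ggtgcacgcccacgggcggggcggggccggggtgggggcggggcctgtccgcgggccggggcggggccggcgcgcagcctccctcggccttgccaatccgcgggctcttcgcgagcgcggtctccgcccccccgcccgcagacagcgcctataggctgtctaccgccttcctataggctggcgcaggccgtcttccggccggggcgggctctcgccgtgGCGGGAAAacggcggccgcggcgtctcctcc
ORC1: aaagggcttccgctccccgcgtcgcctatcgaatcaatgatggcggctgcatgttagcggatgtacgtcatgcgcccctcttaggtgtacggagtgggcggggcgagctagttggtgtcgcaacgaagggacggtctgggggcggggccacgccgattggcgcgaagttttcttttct

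RefSeq promoters of 300 bases, from 250 before the start to 50 after it, were matched for 8 of the 10 members, all but MCM4 and MCM5. In 7 of these 8, all but ORC1, at least 1 of the 4 E2F-type words was present on either strand, against 3.31% of 35116 promoters of the same length. In MCM6 the words began 152 and 90 bases upstream of the TSS, and each 12-base stretch counted on both strands. In MCM2 and CDC6 the words lay downstream of the TSS, beginning 3 and 8 bases after it. The letters CCAAT, on either strand, were in 6 of 8 members and 34.6% of all promoters. The GC box letters GGGCGG, on either strand, were in 6 of 8 members and 44.95% of all promoters. A match is a run of letters, not a measured binding site, and its absence from a window says nothing of the factor.

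The lists differed widely in size, and their read depth is unknown because they hold peaks and no counts. They held from 13311 peaks over 18.7 Mb (EpiGentek A-4033-050) to 721215 peaks over 769 Mb (Abcam ab8580) among the H3K4me3 antibodies. Abcam ab8580 stood apart from the other 7 H3K4me3 lists, which covered at most 165 Mb. The H3K4me1 lists covered from 723 Mb (Thermo Fisher 710795) to 1593 Mb (Active Motif 39635). Among the H3K4me1 lists, Active Motif 39635 stood apart with 39010 peaks of 25009 bases at the median, against at most 1005 bases in the other 4. Per the labels, 4 libraries (1 H3K4me2 and 3 H3K4me3) had 12 amplification cycles and the other 13 had 8. Also per the labels, 2 of the H3K4me3 lists (Diagenode C15410003 and EpiGentek A-4033-050) were made against another input than the remaining 15. Of 13 erythroid and K562 marker genes, 12 had an H3K4me3 peak in at least 5 of the 8 lists, while 1 of 7 lymphoid (CD3D) and 0 of 7 liver markers did. Nothing in the labels says that the libraries came from separate cultures, so every p-value below measures the spread between antibodies and not between biological samples.

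A promoter was counted as marked in a list where at least 1 base within 1 kb of the TSS lay under a peak. MCM3, MCM6, MCM7, CDC6 and ORC1 were marked in all 17 H3K4 lists. MCM4 was marked in 16 lists, MCM2 and GINS2 in 15 each, CDT1 in 11 and MCM5 in 8. The median member was marked in 16.5 lists, against 17 for a list of 50 other DNA replication genes and 13 for all protein-coding genes. In the H3K4me3 lists alone, MCM3, MCM6, MCM7, CDC6 and ORC1 had a peak in 8 of 8, MCM2 and MCM4 in 7, GINS2 in 6, CDT1 in 2 and MCM5 in 0. Thus 5 of 10 members (50%) were in all 8 H3K4me3 lists, against 36 of the 50 replication genes (72%) and 31.1% of all genes. At least 5 of the H3K4me3 lists held 8 of 10 members, all but MCM5 and CDT1, against 45 of the 50 replication genes and 52.9% of all genes. The absences at the other 3 genes fell in 2 lists. EpiGentek A-4033-050 lacked MCM2, MCM4 and GINS2, and Diagenode C15410003 lacked GINS2. These are the 2 H3K4me3 lists made against the other input, so antibody and input cannot be told apart in these absences.

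**Figure D1:**
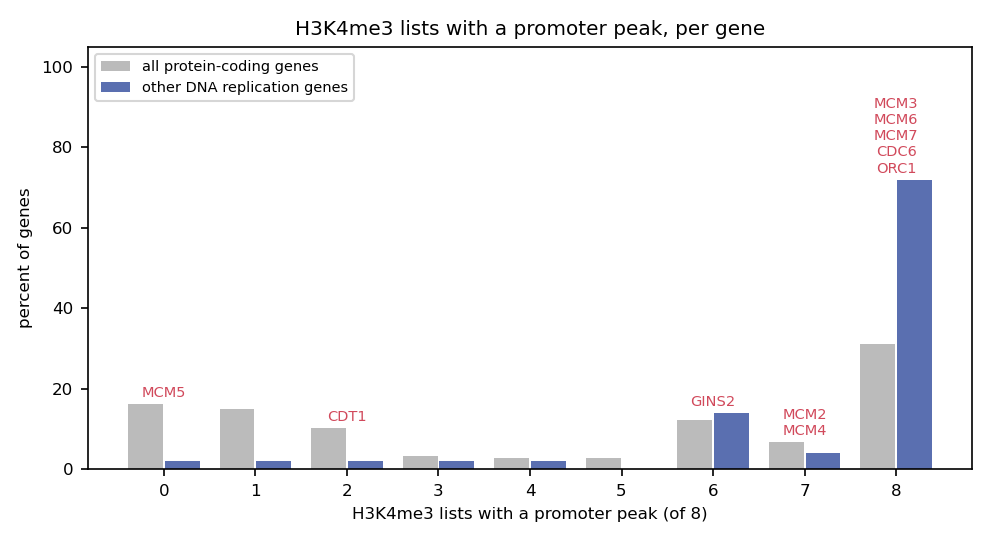
Number of H3K4me3 peak lists (x axis, of 8) with a peak within 1 kb of the TSS, as a percentage of genes (y axis) for all 19962 protein-coding genes (grey bars) and 50 other DNA replication genes (blue bars), with each of the 10 members written above its count. MCM5 stands at 0 and CDT1 at 2, and the other 8 members stand at 6, 7 or 8 lists.

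**Figure D2:**
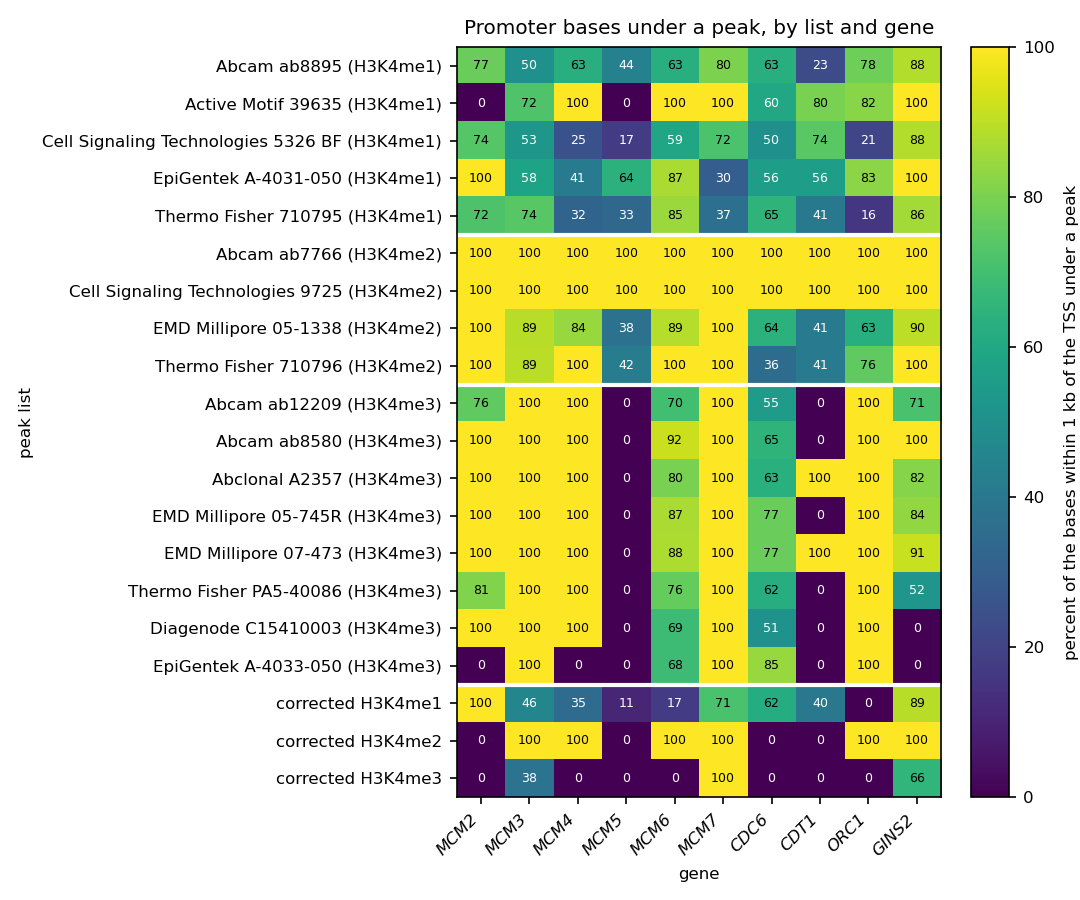
Percentage of the bases within 1 kb of the TSS that lay under a peak, by peak list (rows, with the antibody's target in brackets) and gene (columns), with the rounded percentage in each cell and the colour scale running from 0 to 100. The MCM5 column is at 0 in all 8 H3K4me3 rows, and the H3K4me2 rows of Abcam ab7766 and Cell Signaling Technologies 9725 are at 100 in every column. The median over all protein-coding genes is also 100 in both of these H3K4me2 lists.

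H3K4me1 peaks stopped short of the TSS of most members, while H3K4me3 peaks sat over it. The H3K4me1 peak lists held the TSS itself in 0 of 5 lists for MCM5, CDC6 and CDT1, in 1 for MCM2, MCM3, MCM4, MCM6 and ORC1, in 3 for MCM7 and in 4 for GINS2. The H3K4me3 lists held it in 8 of 8 for MCM3, MCM7, CDC6 and ORC1, in 7 for MCM2 and MCM4, in 6 for MCM6 and GINS2, in 2 for CDT1 and in 0 for MCM5. To set the shapes against each other, the percentage of bases under peaks from 1 to 3 kb on both sides of the TSS was subtracted from the percentage within 250 bases of it. This core minus flank difference is negative where peaks flank a bare TSS, positive where a peak is centred on it, and 0 both where all bases and where no bases are covered. It was lower with H3K4me1 than with H3K4me3 antibodies for all 10 members (exact two-sided permutation test over antibodies per gene, Benjamini-Hochberg adjustment over 19962 genes, threshold 0.05), as it was for 48.7% of all genes. MCM5 counts apart, since it was chosen as the gene without an H3K4me3 list and its H3K4me3 values were 0 in all 8. The median difference was -116 percentage points for the members, -107 for the 50 replication genes, of which 47 were called lower, and -45.3 for all genes. The H3K4me1 lists covered far more of the genome than most H3K4me3 lists, and the part of this in the difference was not tested.

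CDC6 had the largest difference of the members. Its core minus flank values were -79.2, -98.4, -100, -64.9 and -63.9 points in the 5 H3K4me1 lists, in the order given above, and the lowest, median and highest of 8 H3K4me3 lists were -7.21, 66.3 and 90.9. All 5 H3K4me1 values were below all 8 H3K4me3 values, with means of -81.3 ± 17.5 (SD, n = 5) and 60.0 ± 33.5 (SD, n = 8) and a difference of -141 (exact permutation test, adjusted p = 0.00669). MCM6, MCM7, CDT1 and ORC1 reached the same adjusted p, the smallest that 5 against 8 antibodies gave, and their groups did not overlap either. Of all 19962 genes, 4637 reached that smallest p, in either direction. Their differences were -114 for MCM6, -119 for MCM7, -98.0 for CDT1 and -122 for ORC1. At CDT1, 6 of the 8 H3K4me3 values were 0 because those lists had no peak within 3 kb, so its difference mostly sets flanking H3K4me1 peaks against bare regions. In MCM3 the H3K4me1 values were -100, -92.0, -100, -100 and 0, the last from Thermo Fisher 710795, whose peak ran over the TSS, and the H3K4me3 values ran from 0 (Abcam ab8580, covered throughout) to 87.1. The difference for MCM3 was -140 (exact permutation test, adjusted p = 0.0109, n = 5 and 8). MCM4 differed by -116 (adjusted p = 0.0109), MCM2 by -117 (0.0132) and GINS2 by -80.1 (0.0217) in the same exact test. For MCM5 the difference of -69.9 (exact test, adjusted p = 0.0303) set H3K4me1 lists with flanking peaks against 8 lists in which the region was bare, so it describes H3K4me1 alone. Leaving out 1 antibody at a time kept the call for 8 members, with 8037 to 10038 of 19962 genes called lower in these runs. GINS2 lost it without Thermo Fisher 710795, Cell Signaling Technologies 5326 BF or Abcam ab8895 (highest adjusted p = 0.0552, exact test), and MCM5 lost it without any H3K4me1 antibody other than Active Motif 39635 (0.0753). Within the libraries of 8 amplification cycles, 5 members were called lower (MCM6, MCM7, CDC6, CDT1 and ORC1, each with an adjusted p of 0.0336 in the exact test) and 4645 genes in all, and the differences of the 10 ran from -62.0 (GINS2) to -138 (CDC6). Within the lists of the larger input group, 9 members were called lower, all but MCM5 (-69.9, adjusted p = 0.0570, exact test). In the same lists 9627 of 19962 genes were called lower.

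**Figure D3:**
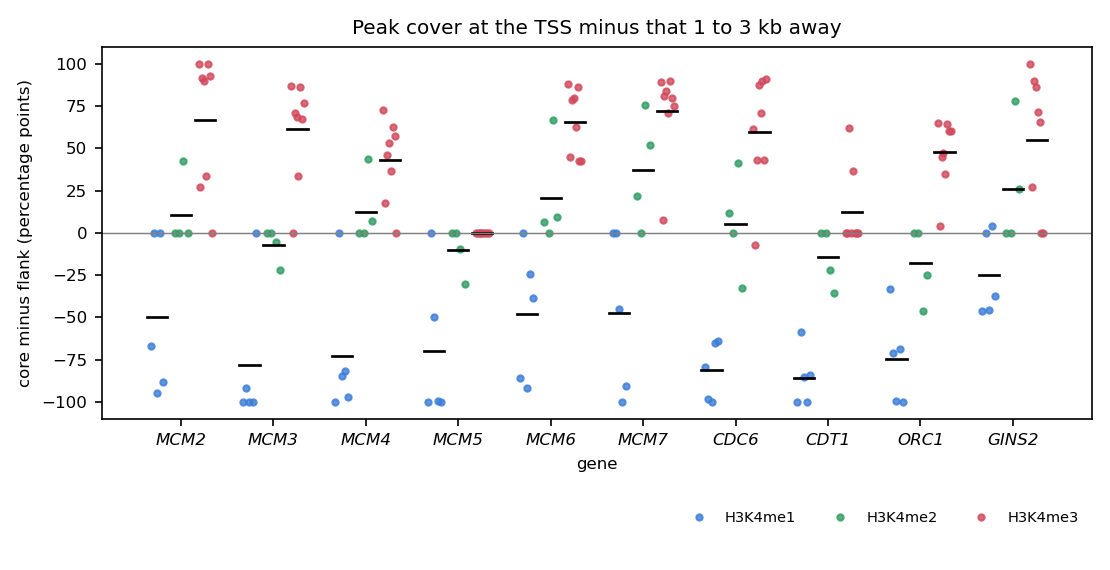
Core minus flank difference in percentage points (y axis) for each gene (x axis) and antibody list (points, coloured by target), with the group mean as a black bar. The H3K4me1 points lie at or below 3.83 points for every gene, and the H3K4me3 means lie between 43.3 and 72.2 points except at CDT1 (12.4) and MCM5 (0).

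The stretch without an H3K4me1 peak over the TSS was mostly shorter than the H3K4me3 peak over it. Where an H3K4me1 list left the TSS uncovered, the peak-free gap was 744, 807, 995, 880 and 697 bases at CDC6, in the order of lists given above. At CDT1 the gaps were 1541, 403, 513, 887 and 1331 bases. At MCM3 they were 998, 551, 938 and 837 bases in the 4 lists that had one. Median gaps ran from 279 bases at GINS2 (1 list) and 517 at MCM6 to 1336 at MCM5, 1338 at MCM7 (2 lists) and 1381 at MCM4. At each of the 9 members with an H3K4me3 peak over the TSS, the narrowest of these peaks was wider than the longest such gap, setting aside MCM2 in Active Motif 39635. Their median widths ran from 1808 bases at CDC6 to 3856 at ORC1 and 3875 at MCM4. For MCM2 and MCM5 the Active Motif 39635 list had no peak within 100 kb, which gives gaps of megabases that are absences and not gaps of the promoter.

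**Figure D4:**
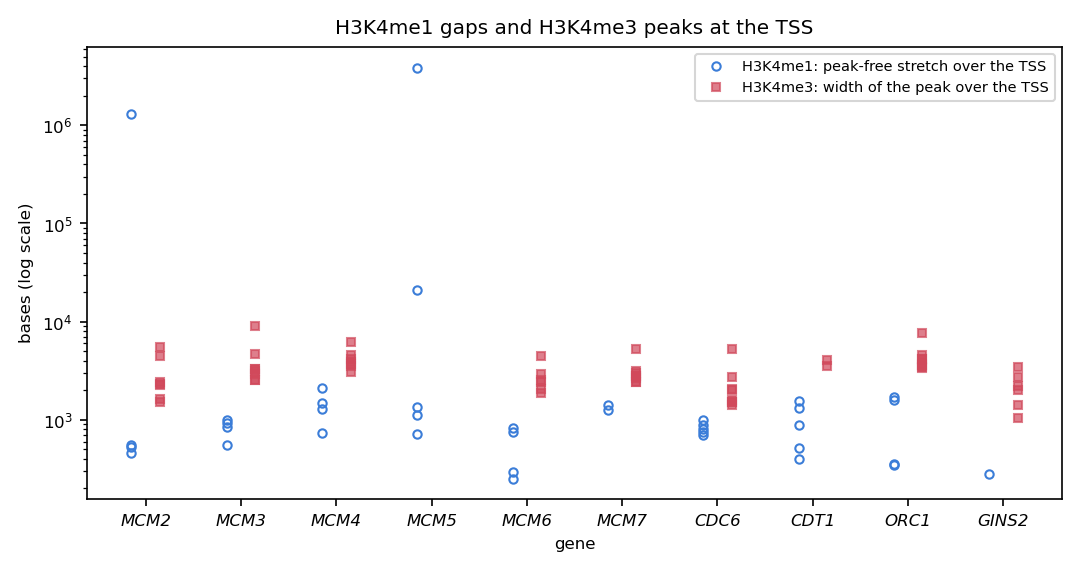
Length in bases (y axis, log scale) of the peak-free stretch over the TSS in each H3K4me1 list that left the TSS bare (blue circles) and width of the peak over the TSS in each H3K4me3 list (red squares), by gene (x axis). Most circles lie between 252 and 2118 bases and the squares between 1043 and 9035 bases, and the circles above those squares belong to MCM2 and MCM5.

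Among the helicase subunits, MCM7 had an H3K4me3 peak that covered the whole 2 kb window in 8 of 8 lists, was 2403 to 5266 bases wide (median 2780) and began between 1175 and 3128 bases upstream of the TSS. The H3K4me1 lists, in the same order throughout, covered 80.1%, 100%, 71.5%, 29.7% and 36.6% of the window. Active Motif 39635 alone covered the whole window. The MCM7 window is shared with AP4M1, an adaptor complex gene that starts 246 bases away on the other strand and was marked in the same 8 H3K4me3 lists, so the peak cannot be given to 1 of the genes.

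MCM3 was likewise fully covered in 8 of 8 H3K4me3 lists, with peaks of 2516 to 9035 bases (median 3215). Its H3K4me1 lists covered 50.1%, 72.5%, 53.1%, 58.2% and 74.1% of the window. All of these were below the H3K4me3 values. MCM6 was marked in 8 of 8 H3K4me3 lists but never fully covered, between 68.5% and 92.0%, and its peaks reached farther downstream than upstream. In Diagenode C15410003 and EpiGentek A-4033-050, the lists made against the other input, the MCM6 TSS lay in a gap of 205 and 212 bases between peaks.

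MCM2 and MCM4 had H3K4me3 peaks in the same 7 lists. For MCM2 these were 1511 to 5497 bases wide (median 2337) and covered 75.5% to 100% of the window. For MCM4 they were 3089 to 6168 bases wide (median 3875) and covered all of it, with the larger part upstream of the TSS. PRKDC, the catalytic subunit of the DNA-dependent protein kinase, starts 805 bases upstream of the MCM4 TSS on the other strand and was also marked in 7 H3K4me3 lists. H3K4me1 covered 77.1%, 0%, 73.6%, 100% and 72.2% of the MCM2 window, the 0% from Active Motif 39635. It covered 63.2%, 100%, 25.3%, 41.3% and 32.4% of the MCM4 window, where Active Motif 39635 gave the highest value in place of the lowest.

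MCM5, on the plus strand of chromosome 22 with its TSS at 35400140, had H3K4me1 and H3K4me2 peaks and no H3K4me3 peak. All 4 H3K4me2 lists marked its promoter. Abcam ab7766 (a peak of 11264 bases with a signal value of 30.6) and Cell Signaling Technologies 9725 (15313 bases, value 30.8) covered the whole window. In EMD Millipore 05-1338 the peak ended 248 bases upstream of the TSS and covered 37.6% of the window, and in Thermo Fisher 710796 it ended 151 bases upstream and covered 42.5%. In H3K4me1, Abcam ab8895, EpiGentek A-4031-050 and Thermo Fisher 710795 had peaks on both sides of gaps of 1122, 713 and 1336 bases. Cell Signaling Technologies 5326 BF had the upstream peak alone, ending 657 bases before the TSS. The nearest H3K4me3 peak was 5692 bases away in EMD Millipore 07-473 and 5795 in Abcam ab8580, both upstream. In the other 6 H3K4me3 lists it was 23099 to 98264 bases away. The window was bare in the largest H3K4me3 list as well as in the smallest. A missing peak shows that the authors' calling found none there and not that the modification was absent. Of 11872 genes with a peak in all 4 H3K4me2 lists, 93 (0.783%) had none in any H3K4me3 list, and MCM5 was 1 of them. HMOX1, the haem-degrading enzyme, is the only other coding gene that starts within 100 kb, 19044 bases upstream. It was marked in 4 H3K4me1, 2 H3K4me2 and 0 H3K4me3 lists. By the root mean square difference of covered percent over the 17 lists, the genes most like MCM5 were AGAP1 (8.69 points), EIF4A1 (11.2), TTC7B (12.2), USP12 (12.4) and SMS (13.2).

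**Figure D5:**
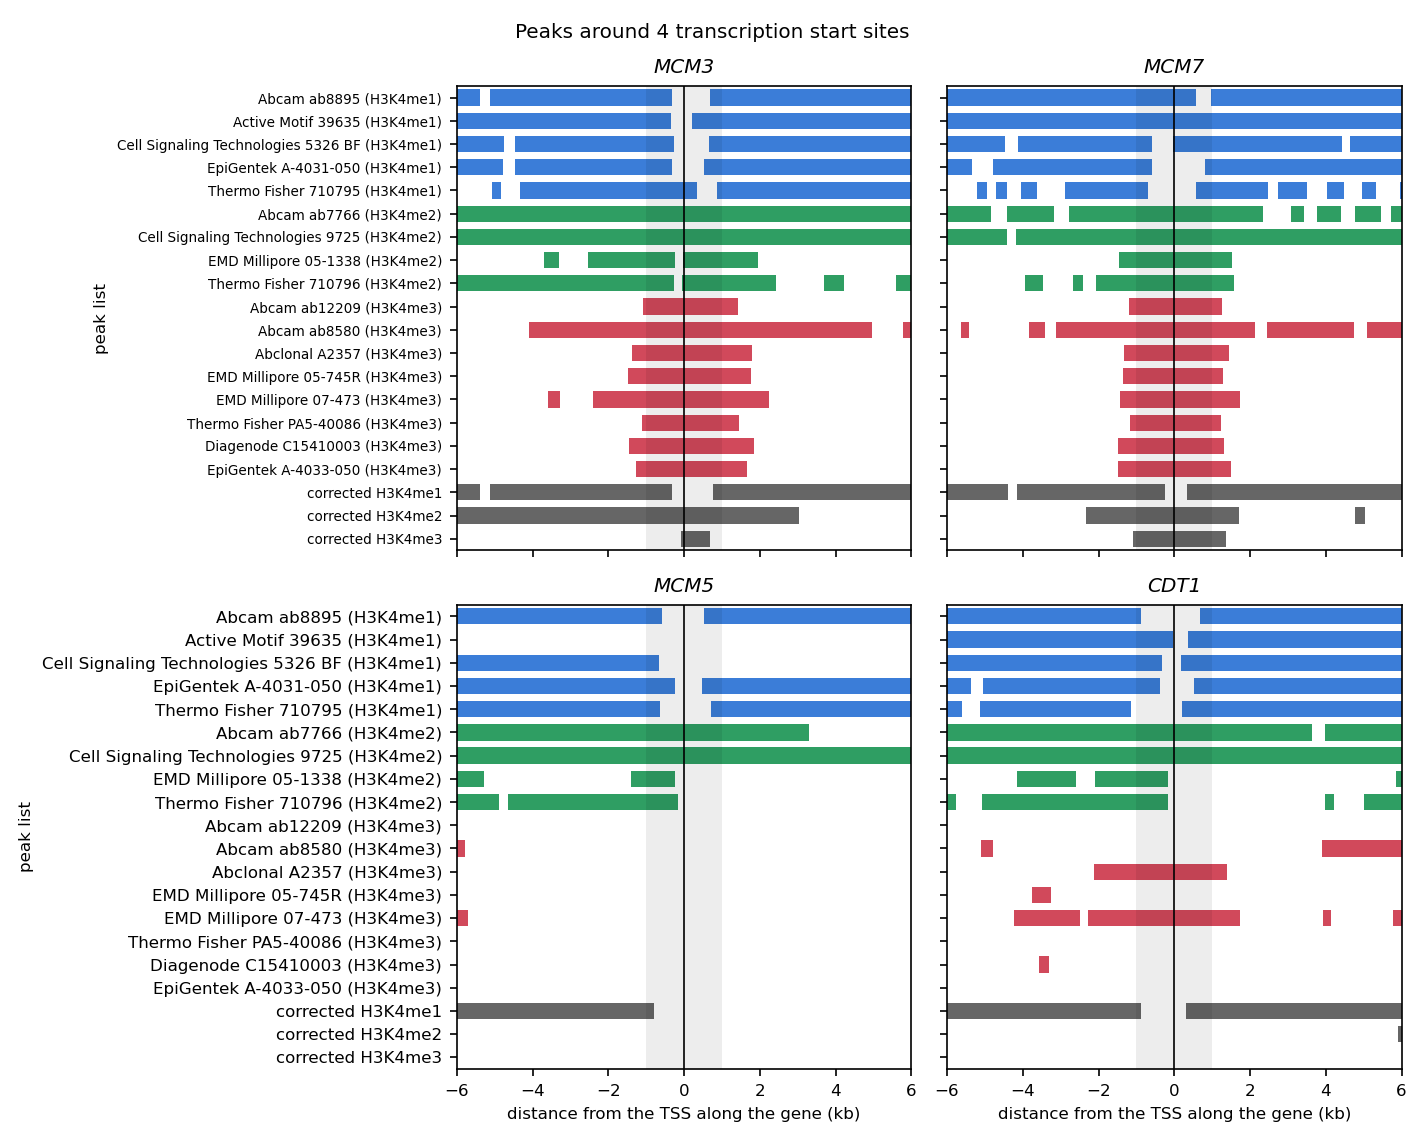
Peaks (horizontal bars, blue H3K4me1, green H3K4me2, red H3K4me3, dark grey corrected lists) within 6 kb of the TSS of MCM3, MCM7, MCM5 and CDT1, with distance along the gene in kb on the x axis, 1 row per list, the TSS as a black line and the 1 kb window either side shaded. At MCM3 and MCM7 red bars cross the TSS in all 8 rows, at CDT1 in 2 rows and at MCM5 in none.

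Of the loading factors, ORC1 and CDC6 were in all 8 H3K4me3 lists. ORC1 was fully covered in each, by peaks of 3394 to 7619 bases (median 3856), and shares its window with PRPF38A, a splicing factor gene that starts 179 bases away on the other strand and was marked in the same number of lists. CDC6 had narrower peaks of 1407 to 5227 bases (median 1808) that lay mostly downstream. They started 25 to 691 bases upstream of the TSS and covered 51.3% to 84.6% of the window. In Thermo Fisher 710796 (H3K4me2) the CDC6 TSS was bare, with the nearest peak ending 290 bases upstream. CDT1, on the plus strand of chromosome 16 with its TSS at 88803789, had an H3K4me3 peak in 2 lists only. In Abclonal A2357 it was 3508 bases wide, from 2120 upstream to 1387 downstream, with a signal value of 54.8, and in EMD Millipore 07-473 it was 4030 bases wide with a value of 53.4. In the other 6 lists the nearest peak was 3265 to 6878 bases away. These 6 hold Abcam ab8580, the largest list. H3K4me1 covered 23.0%, 79.9%, 74.4%, 55.7% and 40.6% of the CDT1 window and H3K4me2 covered 100%, 100%, 41.3% and 41.1%.

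GINS2, the member of the GINS complex, had H3K4me3 peaks in 6 lists. They were 1043 to 3423 bases wide (median 2123) and covered 52.1% to 100% of the window. The 2 absent lists were Diagenode C15410003 and EpiGentek A-4033-050, those made against the other input. H3K4me1 covered 88.5%, 100%, 88.3%, 100% and 86.1%, the highest mean of any member (92.6% ± 6.85, SD, n = 5). The canonical GINS2 TSS lies 1119 bases inside the 5′ end of the gene. Measured from that 5′ end, the core minus flank difference turned to 39.0 points, higher in H3K4me1 (exact permutation test, adjusted p = 0.0148), so the direction at GINS2 depends on which start is used.

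As a share of the 2 kb window, H3K4me1 and H3K4me3 differed at fewer members than by shape. H3K4me1 covered less of MCM3 (61.6% ± 11.1 against 100% ± 0, SD, n = 5 and 8, a difference of -38.4 points, exact permutation test, adjusted p = 0.0115) and of ORC1 (55.8% ± 34.4 against 100% ± 0, -44.2, adjusted p = 0.0115), in both cases without overlap between the groups. It also covered less of MCM7 (63.6% ± 29.7 against 100% ± 0, -36.4, adjusted p = 0.0395), all in the exact permutation test. These 3 of 10 members compare with 15 of the 50 other replication genes and 11.3% of all genes called in that direction. Of the same 50 genes, 3 were called higher in H3K4me1. The smallest p of this test, that of MCM3 and ORC1, was reached by 2686 of 19962 genes, in either direction. MCM5 was the 1 member with more cover in H3K4me1 (31.7% ± 24.7 against 0%, exact test, adjusted p = 0.0395), among 26.5% of all genes, and this restates the absence for which it was chosen. The calls of MCM3 and ORC1 held with any single antibody left out, whereas those of MCM5 and MCM7 were lost in 11 of 13 cases (highest adjusted p = 0.0947, exact test). Measured from the 5′ end of the gene, MCM7 differed by -19.2 and was not called (exact test, adjusted p = 0.198). Within 8-cycle libraries the differences at MCM3, ORC1, MCM7 and MCM5 stayed at -38.4, -44.2, -36.4 and 31.7, but with fewer lists no member and no gene was called (adjusted p = 0.0557 for MCM3 and ORC1, exact test), and with 2.5 kb either side the difference turned positive at MCM2, MCM3, MCM4, MCM7, CDC6 and ORC1.

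In core minus flank the H3K4me2 lists lay between the others, with a median of gene means of 7.90 points over the members against -71.3 for H3K4me1 and 57.5 for H3K4me3. The order was the same for all genes, with 5.97 for H3K4me2, -11.9 for H3K4me1 and 26.4 for H3K4me3. The 50 other replication genes had 16.8, -43.4 and 68.0. The H3K4me2 lists held the TSS in 4 of 4 for MCM2, MCM3, MCM4, MCM6, MCM7 and GINS2, in 3 for CDC6 and ORC1, and in 2 for MCM5 and CDT1. Abcam ab7766 and Cell Signaling Technologies 9725 covered 100% of all 10 windows, and the median over all genes was 100% in both lists too. In both, the median core minus flank was 0 for the members and for all genes. EMD Millipore 05-1338 and Thermo Fisher 710796 each left parts of MCM3, MCM5, CDC6, CDT1 and ORC1 bare. Against H3K4me3, the exact permutation test called 0 of 10 members and 0% of 19962 genes after adjustment, in covered percent and in core minus flank. At an unadjusted p under 0.05, 3 of 10 members (MCM5, MCM6 and GINS2) were higher in H3K4me2 in covered percent, as were 4866 genes (24.4%). MCM5 was chosen as the gene without an H3K4me3 list, so its place there restates that absence. In core minus flank, 4 of 10 members (MCM3, MCM6, CDC6 and ORC1) were lower in H3K4me2, as were 6357 genes (31.8%). Without Abcam ab8580 the core minus flank call was made for MCM3, CDC6 and ORC1 (adjusted p = 0.0361, exact test), and for 4984 genes lower and 83 higher.

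In the authors' corrected lists the members parted further. Corrected H3K4me3 marked 3 of 10 members, MCM7 (100% of the window), GINS2 (65.7%) and MCM3 (38.3%), against 19 of 50 replication genes and 18.1% of all genes. Corrected H3K4me2 marked 6, MCM3, MCM4, MCM6, MCM7, ORC1 and GINS2, each over 100% of the window, against 43 of 50 and 55.1%. Corrected H3K4me1 marked 9, all but ORC1, against 44 of 50 and 71.4%. MCM4, MCM6 and ORC1 thus had H3K4me2 without H3K4me3 in the corrected lists, although 7 or 8 of the single-antibody H3K4me3 lists held a peak there. MCM2, CDC6, CDT1 and MCM5 had corrected H3K4me1 alone, although each was marked in 4 single-antibody H3K4me2 lists. The single-antibody H3K4me3 lists marked CDC6 in 8, MCM2 in 7, CDT1 in 2 and MCM5 in 0. At MCM2 the corrected H3K4me1 peak was 13110 bases wide, ran across the TSS and covered 100% of the window. At MCM5 it ended 784 bases upstream of the TSS and covered 10.8%.

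The MCM3 peak had the highest value of the corrected H3K4me3 list, 107 over 766 bases, rank 1 of 48459 peaks with the next at 102 and a list median of 9.62. MCM7 followed at rank 729 with 52.5 over 2464 bases, and GINS2 at rank 2024 with 41.8 over 1315 bases. The deposited column has no name and 4 values of that list exceed 100, so it was not read as a percentage, and values were ranked within a list only. Among the H3K4me3 peaks over promoters in the single-antibody lists with values, CDC6 ranked highest in 4 of 5 lists, at the 99.2, 99.9, 95.1, 90.6 and 96.2 percentile in Abcam ab12209, Abclonal A2357, Thermo Fisher PA5-40086 and, from EMD Millipore, 05-745R and 07-473. In EMD Millipore 07-473 MCM7 ranked just above it. The CDC6 values there were 56.5, 88.0, 55.8, 51.7 and 57.5. GINS2 had the lowest median percentile, 35.5, with a range of 18.9 to 55.1, and in EMD Millipore 07-473 MCM2 and MCM3 ranked below it. ORC1 and MCM7 lay between, with medians of 86.4 and 85.3, and MCM2 had a median of 50.2. MCM3, at rank 1 in the corrected list, had a median of 61.8 in these single-antibody lists, with a range of 54.5 to 68.7. CDC6 thus joined a narrow peak to a high value, while MCM4 and ORC1 joined the peaks widest at the median to values at the 58.1 to 90.2 percentile. In EMD Millipore 07-473 and Abcam ab8580 the MCM3 peak was wider than theirs.

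Among the 50 other replication genes, fixed as a list by function, the fewest lists marked RFC3 (4 of 17), a clamp loader subunit, RPA1 (8), which binds single-stranded DNA, and POLE (10), the leading-strand polymerase. POLD4, POLA2 and POLE3 had all 17 and the highest mean cover, 96.0%, 92.8% and 92.5%. RFC3 had 0 of 8 H3K4me3 lists, as MCM5 did, but 2 of 4 H3K4me2 lists where MCM5 had 4. The genes nearest to the members' median profile were ARID1B (8.34 points), SRM (8.63), PPFIA3 (8.77), NR1D2 (9.13) and C19orf73 (9.29). The H3K9me3 list covered 2834 Mb and marked 10 of 10 members and 98.7% of all genes. The H3K27me3 list covered 2029 Mb and marked 7 members, all but MCM2, MCM5 and CDT1, and 73.9% of all genes.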

How the data were processed

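The deposited peak lists of K562 were made with Bowtie2, SAMtools, bedtools and MACS2 on GRCh38 (hg38), per the submitters' processing notes. The versions, calling settings and high-confidence rule were not given in the sources used here. Lists were made per antibody, with no pooling except in the 3 corrected lists, per the labels. The authors gave a signal value per peak in 17 deposited lists (an unnamed column, treated as a score), and 5 lists hold positions only. Mouse samples and inputs were not analysed here.

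Peaks were set against Ensembl canonical TSSs of GENCODE 44 with Python 3.11.15 and numpy 2.4.6: the percentage of bases within 1 kb under peaks, and the core (250 bases) minus flank (1 to 3 kb) difference. Each gene was tested over antibodies by an exact two-sided permutation test, with p-values adjusted over 19962 genes; the script was tested on simulated data. Genes with the fewest and most lists (3 each) and the 5 nearest in profile were named by rule. The members and lists were chosen with earlier results of these data known. Antibodies, inputs, cycles, windows, TSS and peak values were varied as alternatives.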

Additional observations from a re-analysis of the deposited data

Results flagged for a closer look

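Of 60 groups of antibody values (10 genes, 3 targets, 2 measures), 12 had 1 antibody far from the rest by Dixon's test. Chance flags about 1 in 20 groups of freely varying values, and that rate does not hold here, since many groups are tied at 0% or 100% and any departure from a tie is then flagged. EMD Millipore 05-1338 (H3K4me2) accounted for 6 of the 12. It covered 84.5% of the MCM4 window, 88.7% of MCM6 and 89.9% of GINS2, where the other 3 H3K4me2 lists covered 100%. Its core minus flank value was 42.7 points at MCM2 (others 0), 43.5 at MCM4 (others 0 to 6.85) and 67.0 at MCM6 (others 0 to 9.18). This list covered 111 Mb in all and had 12 amplification cycles, against 518 to 1502 Mb and 8 cycles for the other 3, and the part of either in these values was not tested.

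EpiGentek A-4033-050, the smallest H3K4me3 list, covered 0% of MCM2 (others 75.5% to 100%) and 0% of MCM4 (others 100%). Active Motif 39635 (H3K4me1) covered 0% of MCM2, where the other 4 covered 72.2% to 100%, and its core minus flank value at MCM4 was 0 with the whole region covered (others -100 to -81.7). Thermo Fisher 710795 gave 0 at MCM3 (others -100 to -92.0). Abcam ab8580 gave 7.53 at MCM7 (others 70.9 to 90.0), and this list covered 92.5% of the MCM7 flanks.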

How the results depend on the processing

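Peak lists carry no read depth, so a missing peak cannot be told from too few reads. The number of H3K4me3 lists with a peak stayed within 1.5 times its main value at every member under all 5 alternatives, while MCM5 fell from 8 to 5 of all 17 lists with 0.5 kb either side and to 3 where a peak had to cover 0.5 of the window, which left CDT1 with 7. In core minus flank, H3K4me1 against H3K4me3, all 10 members kept their direction except GINS2 from the 5′ end of the gene (39.0, where 1 member was called higher). Members called lower numbered 5 with 8 cycles only, with 4645 genes lower (9722 in the main test) and 67 higher (389). Genes called higher were 201 with the AR16 input only, 763 without Abcam ab8580 and Active Motif 39635 (left out after seeing the data), and 142 to 709 with 1 antibody left out. From the 5′ end, GINS2 also turned in H3K4me2 against H3K4me3 (28.9). Without Abcam ab8580, H3K4me2 against H3K4me3 gave 4984 genes lower and 83 higher and 3 members lower, where 0 were called otherwise.

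In covered percent, H3K4me1 against H3K4me3, leaving out 1 antibody gave 969 to 2163 genes lower (2248 with all) and 2478 to 6525 higher (5298), with 0 to 2 members higher. With 8 cycles only 0 genes and 0 members were called in either direction, while the differences at MCM3, MCM5, MCM7 and ORC1 were unchanged with fewer lists. With the AR16 input only, 2343 genes and 0 members were higher. With 0.5 kb either side, 0 members were higher, and from the 5′ end, 2. With 2.5 kb either side, 199 genes and 0 members were lower and 11208 genes and 6 members higher, and the difference turned at MCM2 (28.1), MCM3 (16.2), MCM4 (9.33), MCM7 (25.5), CDC6 (39.6) and ORC1 (3.15). MCM6, at 0.0575 in the main test, turned with 1 of 7 antibodies left out (over all such cases it ran from -5.23 to 5.03), with the AR16 input (-3.36), 8 cycles (-1.98), 0.5 kb (-32.1) and both lists above left out (-3.34), which also turned MCM2 (1.21). In H3K4me2 against H3K4me3, CDC6 turned (-0.283 without either Abcam ab7766 or Cell Signaling Technologies 9725, from -0.283 to 21.2 over all cases, and -5.56 with 0.5 kb), MCM4 (-3.89 without EpiGentek A-4033-050, up to 12.5 over all cases, and -3.89 with the AR16 input), and with 2.5 kb MCM3 (26.4) and ORC1 (9.35). None of these turned from a called value except MCM3, MCM7, ORC1 (2.5 kb) and GINS2. The cause was not tested. No paired analysis was possible because the replicate numbers are accession order and the labels pair no antibodies.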
